A study of Rattus norvegicus with 6 samples.

Results

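Microglia are the resident macrophages of the brain, and 8 genes that mark them or serve antigen presentation were followed in the substantia nigra pars compacta of rats given rotenone or its solvent: Aif1, Itgam, Cx3cr1, Cd68, C1qb, Ctss, Cd74 and B2m. A probe was taken as a gene's own when its RefSeq accession in the scanner files, read without its version, was a rat transcript of that gene. Of 33849 probes for transcripts on the array, 6 met this rule, 1 each for Aif1, Itgam, Cx3cr1, C1qb, Ctss and Cd74. No probe matched B2m, the light chain of MHC class I, or Cd68, a lysosomal glycoprotein of macrophages, by accession, so neither was analysed here. The tissue came from 5-month-old male Sprague Dawley rats. The rotenone group was 3 rats (rats 9, 13 and 16) that received 0.5 mg/kg/day of this mitochondrial complex I inhibitor from a subcutaneous osmotic minipump for 28 days. The solvent group was 3 rats (rats 1, 7 and 11) whose pumps held only the DMSO and polyethylene glycol mixture with the dispersant Pluronic F-127, which the rotenone rats also received, as they did the ketamine and xylazine anaesthesia. Total RNA from laser-captured tissue was amplified by in vitro transcription with a biotin label, and each rat's RNA went onto its own CodeLink array, a one-colour platform, so the replicates were separate animals. The labels do not say how many sections or cells were captured per rat. The question was how exposure to rotenone at this dose changed expression of these genes.

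Microglia survey the tissue with motile processes and are dense in the substantia nigra. Aif1 (also called Iba1) binds actin in microglia and macrophages, Itgam (CD11b) is the alpha chain of complement receptor 3, and Cx3cr1 is the receptor for fractalkine, a ligand made by neurons. C1qb is a chain of C1q, which starts the classical complement cascade. In antigen presenting cells, Cd74, the invariant chain, occupies the groove of new MHC class II molecules and guides them to the endosome, where cathepsin S (Ctss) trims it to a short peptide and the RT1-DM dimer exchanges that peptide for antigen. Resting microglia carry little MHC class II, while macrophages at the brain's borders and vessels carry more.

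Each array called 44.2 to 51.5% of its probes above background. The array of rotenone rat 16 stood apart, with a mean correlation of 0.931 with the other arrays against 0.956 to 0.964 for the other 5, and it had the lowest median intensity net of local background, 11.7 against 13.9 to 16.6. The scanner file of solvent rat 7 carried a different header date from the other 5, so a fit with that date as a block is a fit without rat 7. As a check of the tissue, Th, the rate-limiting enzyme of dopamine synthesis, read 12.91, 12.56 and 13.09 log2 in rotenone rats and 12.88, 12.86 and 12.48 log2 in solvent rats. It was above background in every rat, but the 6 arrays hold no other region to set this level against. Gfap of astrocytes read 8.16, 8.84 and 7.55 in rotenone rats and 8.77, 7.95 and 8.28 in solvent rats, and Mbp of myelin read 6.65, 6.90 and 7.03 in rotenone rats and 7.58, 7.50 and 6.64 in solvent rats. The probe for Snap25, a neuronal synaptic protein, was near background on all 6 arrays. Of 9 neuron markers listed, the 4 measured, Gap43, Stmn2, Nefl and Nefm, were above background in every rat. All levels in the following text are log2 of background-corrected, quantile-normalized intensity, in rat order 9, 13 and 16 for rotenone and 1, 7 and 11 for solvent, and differences are rotenone minus solvent. Levels of different probes cannot be set against each other.

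Across the series, limma called 0 of 16708 probes at an adjusted p below 0.05, a background of 0%, while 825 (4.94%) had an unadjusted p below 0.05 and 1665 (9.97%) had groups that did not overlap. Among the 5 member probes that could be tested, 0 passed the adjusted threshold, 0 had an unadjusted p below 0.05 and 0 had groups that did not overlap. With 3 rats in each group, an exact permutation test of a single gene cannot give a two-sided p below 0.1. The scanner flagged the 36 spots of the 6 member probes as good in 3 cases, irregular in 27 and near background in 6. The irregular mark was common, on 29.4 to 36.3% of all probes per array and on 97.9 to 99.0% of those with a net intensity above 100, and spots that carried it were kept.

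**Figure D1:**
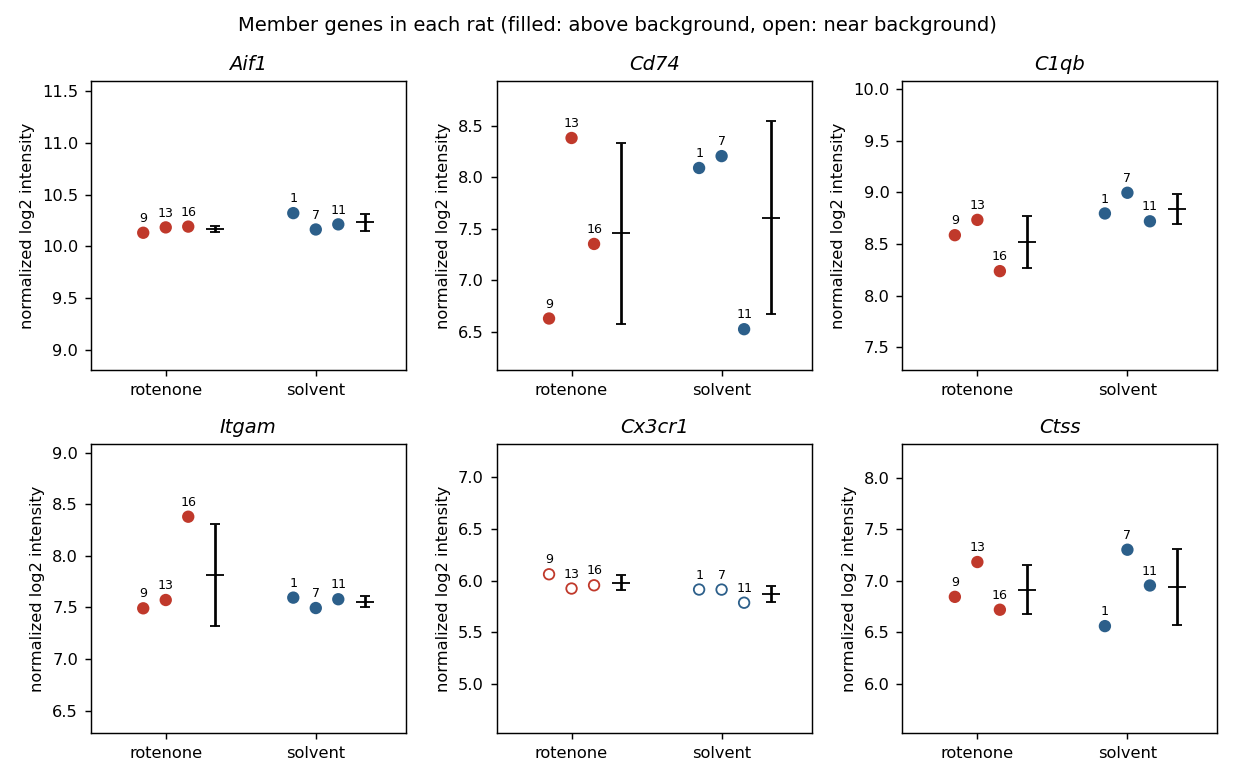
Log2 normalized intensity of the 6 member probes in each rat, with rotenone rats left and solvent rats right, rat numbers beside the points, bars for the group mean ± SD (n = 3) and axes of equal span; open points mark spots near background. The groups overlap for Aif1, Itgam, C1qb, Ctss and Cd74, Aif1 spans 0.19 log2 over all rats against 1.85 for Cd74, and Cx3cr1 was near background in all 6 rats.

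Aif1 was the steadiest member. Its probe (GE21912) read 10.13, 10.18 and 10.19 in rotenone rats and 10.32, 10.16 and 10.21 in solvent rats, a span of 1.14-fold from the lowest rat to the highest. The groups overlapped, and solvent rat 1 was the highest. The mean was 10.17 ± 0.03 in rotenone rats and 10.23 ± 0.08 in solvent rats (SD, n = 3 each), a difference of -0.06 (SE 0.15, 95% confidence interval -0.40 to 0.27, limma adjusted p = 0.952). The SD within groups, 0.06, stood at the 1.23 percentile of the 812 tested probes whose mean level lay within 0.5 log2 of it. Before normalization the net intensities were 1056, 1084 and 1040 in rotenone rats and 1311, 1171 and 1105 in solvent rats. All 6 spots were flagged irregular. In tissue RNA of this kind, fewer cells of a type and less RNA per cell cannot be told apart, for this gene and those that follow.

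Itgam (GE13525) was similar in 5 rats and higher in the sixth. It read 7.49, 7.57 and 8.38 in rotenone rats and 7.59, 7.49 and 7.58 in solvent rats. Rotenone rat 16, the rat whose array stood apart, held the high value, and the other 5 rats lay within 0.10 log2 of each other. The mean was 7.81 ± 0.49 in rotenone rats and 7.56 ± 0.05 in solvent rats (SD, n = 3 each), a difference of 0.26 (SE 0.23, interval -0.26 to 0.78, limma adjusted p = 0.900), and without rotenone rat 16 the difference was -0.02. All 6 spots were flagged irregular.

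The Itgam promoter is shown because PU.1, a factor known to act on this promoter in myeloid cells, has GAGGAA as its core. The sequence runs 5′ to 3′ from 250 bases before the gene's start to 50 after it (GRCr8 chr1:192089342-192089641, plus strand, from RefSeq), with matches to GAGGAA or its reverse complement TTCCTC in capitals.
Itgam: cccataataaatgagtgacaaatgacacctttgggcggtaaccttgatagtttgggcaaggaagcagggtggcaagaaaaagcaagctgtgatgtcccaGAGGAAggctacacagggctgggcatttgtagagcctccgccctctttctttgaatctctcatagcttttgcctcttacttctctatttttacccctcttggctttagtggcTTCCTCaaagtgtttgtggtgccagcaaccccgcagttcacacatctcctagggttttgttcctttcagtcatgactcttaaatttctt
The 2 matches lie 151 and 39 bases before the start, the nearer one on the reverse strand. A GAGGAA on either strand occurs in 27.6% of the 33469 promoters of the same length, and a match describes the sequence only.

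Cx3cr1 (GE20839) was flagged near background on all 6 arrays. Its net intensity was 10.6, 5.00 and 5.57 in rotenone rats and 4.79, 4.87 and -0.54 in solvent rats. The 95th percentile of the 256 negative control spots was 10.8 to 12.2 per array, and no Cx3cr1 spot exceeded that of its own array. No order or fold is therefore given for the receptor. Its ligand Cx3cl1, whose probe was bright, read 9.61, 9.58 and 9.76 in rotenone rats and 9.65, 9.64 and 9.33 in solvent rats, a difference of 0.11 (SE 0.17, limma adjusted p = 0.933).

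C1qb (GE20621) had the lowest unadjusted p among the members. It read 8.59, 8.73 and 8.24 in rotenone rats and 8.80, 9.0 and 8.72 in solvent rats. Rotenone rats 9 and 16 lay below every solvent rat, and rotenone rat 13 lay just above solvent rat 11. The mean was 8.52 ± 0.25 in rotenone rats and 8.84 ± 0.14 in solvent rats (SD, n = 3 each). The difference of -0.32 (SE 0.18, interval -0.72 to 0.09) did not pass limma's test (unadjusted p = 0.111, adjusted p = 0.895), and it was -0.18 without rotenone rat 16. The SD within groups, 0.21, stood at the 30.7 percentile of the 2228 probes of similar level. All 6 spots were flagged irregular.

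Ctss (GE20497) did not differ in mean beyond the spread between rats. It read 6.84, 7.18 and 6.72 in rotenone rats and 6.56, 7.30 and 6.95 in solvent rats, with solvent rats holding both the lowest and the highest value. The mean was 6.92 ± 0.24 in rotenone rats and 6.94 ± 0.37 in solvent rats (SD, n = 3 each), a difference of -0.02 (SE 0.22, interval -0.51 to 0.46, limma adjusted p = 0.992). The spot of rotenone rat 16 was flagged good and the other 5 irregular.

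The Ctss promoter is shown for the element that interferon regulatory factors bind, GAAA repeated after 2 bases of any kind, which was searched on both strands and stands in capitals (GRCr8 chr2:185775146-185775445, plus strand, from RefSeq, 250 bases before to 50 after the start).
Ctss: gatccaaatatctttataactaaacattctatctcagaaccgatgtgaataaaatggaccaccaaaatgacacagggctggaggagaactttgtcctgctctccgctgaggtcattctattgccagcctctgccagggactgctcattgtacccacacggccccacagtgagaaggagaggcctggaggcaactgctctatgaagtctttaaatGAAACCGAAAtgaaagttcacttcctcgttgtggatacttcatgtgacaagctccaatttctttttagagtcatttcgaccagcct
The match lies 36 bases before the start, and the element occurs in 3.92% of the 33469 promoters.

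Cd74 (GE20152) varied far more among rats of the same group than between the groups. It read 6.63, 8.38 and 7.35 in rotenone rats and 8.09, 8.20 and 6.53 in solvent rats. Rotenone rat 9 and solvent rat 11 were low, rotenone rat 13 and solvent rats 1 and 7 were high, and rotenone rat 16 lay between. The lowest and highest rats of a group differed by 1.75 log2 in the rotenone group and by 1.68 log2 in the solvent group, and the lowest and highest of all 6 differed by 3.61-fold. The mean was 7.46 ± 0.88 in rotenone rats and 7.61 ± 0.94 in solvent rats (SD, n = 3 each). The difference was -0.15 (SE 0.49, limma adjusted p = 0.968) and its interval ran from -1.24 to 0.94, so that a sizeable change in either direction was not detectable with 3 rats per group. Leaving out rotenone rat 9 gave 0.26, leaving out solvent rat 11 gave -0.69, and leaving out solvent rat 1 or solvent rat 7 turned the sign as well, to 0.09 and 0.15.

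The within-group SD of Cd74, 0.91, ranked 10 among 4188 tested probes of similar level, whose median SD was 0.26. The spread was present before normalization, with net intensities of 42.1, 283 and 81.7 in rotenone rats and 241, 260 and 38.1 in solvent rats, a 7.43-fold span. Net intensities from the spot median in place of the spot mean were 40, 329 and 75 in rotenone rats and 255, 254 and 36 in solvent rats. The spots of the lowest rat in each group were flagged good, and the other 4 irregular. Rats 9 and 11 were the lowest in all 7 ways of correcting and normalizing the intensities that were compared, over which the span ran from 1.84 to 2.93 log2.

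**Figure D2:**
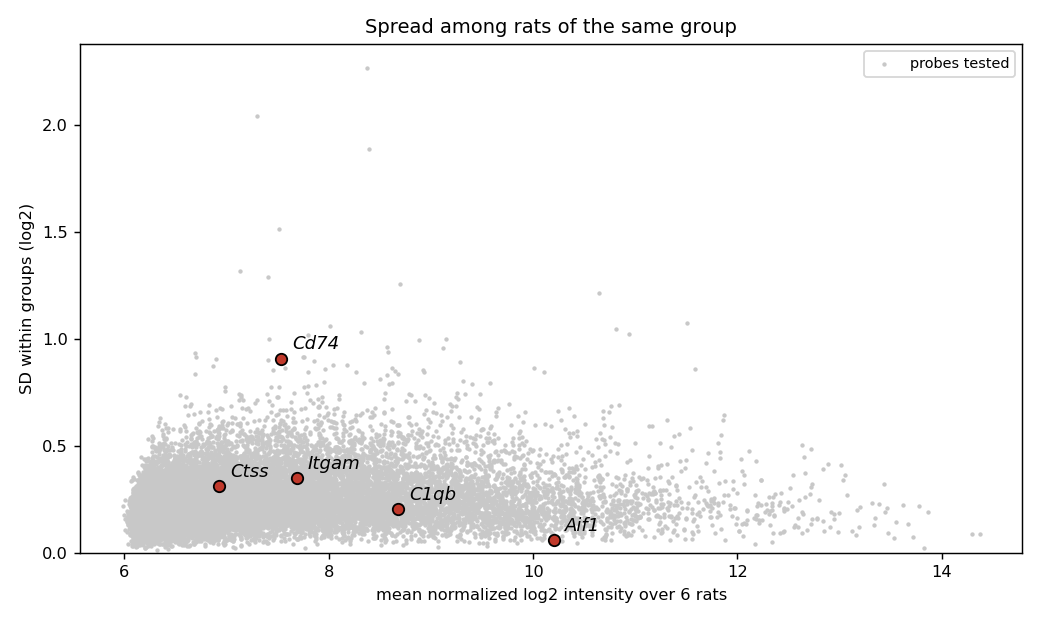
SD within groups against the mean log2 normalized intensity for all tested probes, with the 5 tested members marked. Cd74 lies near the top of the probes of its level at 0.91, Aif1 near the bottom at 0.06, and C1qb, Itgam and Ctss lie among the rest.

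The Cd74 promoter is shown beside that of RT1-DMa because genes of the MHC class II pathway share an upstream module whose Y box has the core CCAAT. This core and its reverse complement ATTGG are in capitals, and both windows, from RefSeq, run from 250 bases before the start to 50 after it (Cd74 at GRCr8 chr18:56526956-56527255, plus strand, and RT1-DMa at GRCr8 chr20:4712286-4712585, minus strand).
Cd74: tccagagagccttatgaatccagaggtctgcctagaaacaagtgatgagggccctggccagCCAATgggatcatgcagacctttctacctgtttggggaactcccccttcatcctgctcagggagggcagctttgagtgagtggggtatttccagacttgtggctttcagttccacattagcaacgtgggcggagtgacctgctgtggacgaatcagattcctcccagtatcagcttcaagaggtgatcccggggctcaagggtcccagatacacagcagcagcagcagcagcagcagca
RT1-DMa: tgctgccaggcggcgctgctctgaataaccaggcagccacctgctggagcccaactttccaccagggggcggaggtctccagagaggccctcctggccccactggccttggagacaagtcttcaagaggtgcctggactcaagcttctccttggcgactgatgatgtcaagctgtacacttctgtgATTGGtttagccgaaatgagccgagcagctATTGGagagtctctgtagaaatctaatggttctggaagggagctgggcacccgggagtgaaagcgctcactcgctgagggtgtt
Cd74 had 1 match, 189 bases before the start, and RT1-DMa had 2, on the reverse strand, 64 and 34 bases before it. CCAAT occurs on either strand in 37.5% of the 33469 promoters. Of the 8 listed genes, 7 were in the promoter table, and Aif1 and RT1-DMb were not.

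Of the RT1-DM pair that loads MHC class II, RT1-DMa ran apart from Cd74, and RT1-DMb was low with it in some rats only, over a narrower range. RT1-DMa read 6.73, 6.57 and 6.42 in rotenone rats and 6.77, 7.17 and 7.19 in solvent rats, so that every rotenone rat lay below every solvent rat, as in 4.89% of tested probes. Its difference of -0.47 (SE 0.18) had an unadjusted p of 0.0266 and a limma adjusted p of 0.895, and did not pass the test. RT1-DMb, its partner in the dimer, read 8.75, 8.92 and 9.21 in rotenone rats and 8.65, 8.95 and 8.58 in solvent rats, a difference of 0.23 (SE 0.19). Solvent rat 11, the lowest for Cd74, was the highest for RT1-DMa and the lowest for RT1-DMb, and rotenone rat 9 was the lowest of its group for RT1-DMb. RT1-DMb was highest in rotenone rat 16, where Cd74 lay between, and was 8.65 in solvent rat 1, where Cd74 was high.

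The 2 named genes nearest to Cd74 in pattern, among 1709 candidates, were Crabp2 and Ppp1r17. Likeness was the root-mean-square difference over the 6 rats of log2 values centred on each gene's mean, and the candidates share the arrays and their processing. Crabp2, which binds retinoic acid in the cytoplasm, read 6.89, 8.12 and 7.19 in rotenone rats and 7.69, 7.59 and 6.87 in solvent rats, a distance of 0.34. Ppp1r17, an inhibitor of protein phosphatases, read 6.93, 8.05 and 6.76 in rotenone rats and 7.14, 7.73 and 6.23 in solvent rats, a distance of 0.38. The median distance of the candidates was 0.78. RT1-DMb stood at 0.70, rank 357, and RT1-DMa at 0.84, rank 1283. The distance depends on how much a gene varies as well as on its pattern. These ranks therefore do not measure likeness in pattern alone.

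**Figure D3:**
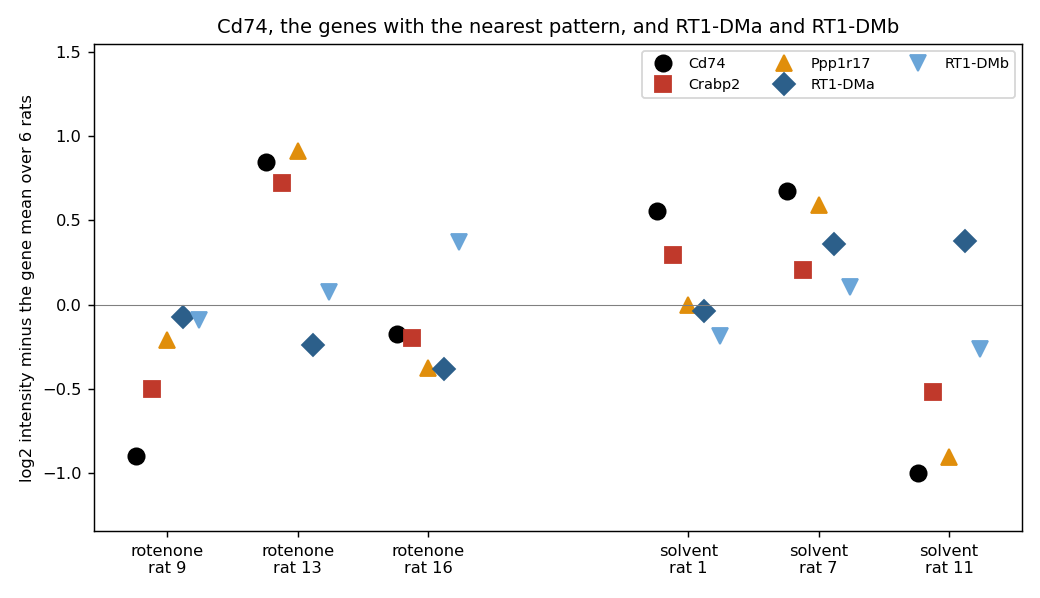
Log2 intensity minus each gene's mean over the 6 rats, with rotenone rats left and solvent rats right, for Cd74, Crabp2, Ppp1r17, RT1-DMa and RT1-DMb. Crabp2 and Ppp1r17 are low with Cd74 in rotenone rat 9 and solvent rat 11 and high in rotenone rat 13, while in solvent rat 11 RT1-DMa is highest and RT1-DMb lowest.

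Of 12468 probes above background on all arrays, 6 were lower in rats 9 and 11 than in the other 4 rats by more than 0.5 log2, a gap chosen after these values were seen, and 2 of them had a gene name, Cd74 with a gap of 0.72 and Igf2 with a gap of 0.76. Igf2, a growth factor made in the adult brain mainly by meninges and choroid plexus, read 9.41, 10.83 and 10.46 in rotenone rats and 10.51, 10.18 and 8.67 in solvent rats. A list of 28 meninges and choroid plexus markers, also chosen after the values were seen and holding Igf2 and Crabp2, had 18 on the array and 11 measured. Igf2 and Crabp2 were picked here for following Cd74, so the list is no separate reading of that pattern. Its summed normalized intensity was 3838, 8427 and 5185 in rotenone rats and 6623, 6463 and 3898 in solvent rats, lowest in rats 9 and 11 and highest in rat 13, but a sum follows the bright probes. The median deviation of the 11 markers from their own means was -0.29, 0.15 and 0.27 in rotenone rats and 0.12, -0.13 and -0.09 in solvent rats, highest in rat 16, with rat 7 below rat 11. Ptgds, which makes prostaglandin D2, read 9.54, 11.94 and 9.04 in rotenone rats and 11.42, 11.63 and 10.25 in solvent rats. Mgp, an inhibitor of calcification, ran otherwise, at 8.83, 8.14 and 9.31 in rotenone rats and 8.00, 8.39 and 8.46 in solvent rats. Col1a2, Folr1 and Gjb6 were highest in rotenone rat 16, as was the brighter Cdh1 probe at 6.83. The other Cdh1 probe was highest in rotenone rat 13, at 6.53 against 6.41 in rotenone rat 16. Ttr, the defining choroid plexus transcript, was near background on all 6 arrays. The part of these cells in the spread of Cd74 was not tested.

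Blood markers varied in some of the same rats. Of 14 listed, 7 were on the array and 4 measured, and their summed normalized intensity was 380, 673 and 356 in rotenone rats and 463, 441 and 352 in solvent rats. Alas2, the red cell enzyme of haem synthesis, was highest in rotenone rat 13 at 8.31. Hba-a1 was also highest there, at 7.51, and was lowest in rotenone rat 16. It read 6.87 in solvent rat 11, where Cd74 was low, and 6.84 in solvent rat 7, where Cd74 was high. S100a9 was highest in solvent rat 7, at 6.62, and lowest in solvent rat 11, at 6.02, and read 6.38 in rotenone rat 13. The lymphocyte markers Cd8a and Gzmb were near background on all 6 arrays. Prf1, the perforin of cytotoxic lymphocytes, was above background in 1 rotenone rat and 2 solvent rats and was highest in rotenone rat 13, at 6.48. Their part in the spread of Cd74 was not tested. Of 5 perivascular macrophage markers listed, only Cd36 was on the array. Its brighter probe read 6.31, 6.51 and 6.54 in rotenone rats and 6.23, 6.49 and 6.72 in solvent rats. Among rotenone rats it was lowest in rat 9, as Cd74 was. Among solvent rats it was highest in rat 11, where Cd74 was low. A single marker cannot stand for these cells, and their part was not tested either. Of 12 microglial markers listed, 4 were measured, of which Aif1, Itgam and C1qb are given above as members and P2ry12 is given below.

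The other members that varied enough to compare each had near neighbours in pattern. Itgam was nearest to Grpr, the receptor for gastrin-releasing peptide, and Chst10, a sulfotransferase, at distances of 0.03 and 0.06 against a median of 0.38 for candidates, and both were highest in rotenone rat 16. C1qb was nearest to Akr7a2, an aldo-keto reductase, and Hacl1, a peroxisomal lyase, at 0.04 and 0.05 against a median of 0.31, and both were lowest in rotenone rat 16. Ctss was nearest to Arl5a, a small GTPase, and Cyb5r4, a reductase, at 0.08 each against a median of 0.33. Aif1 varied too little and Cx3cr1 was too dim to be compared.

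**Figure D4:**
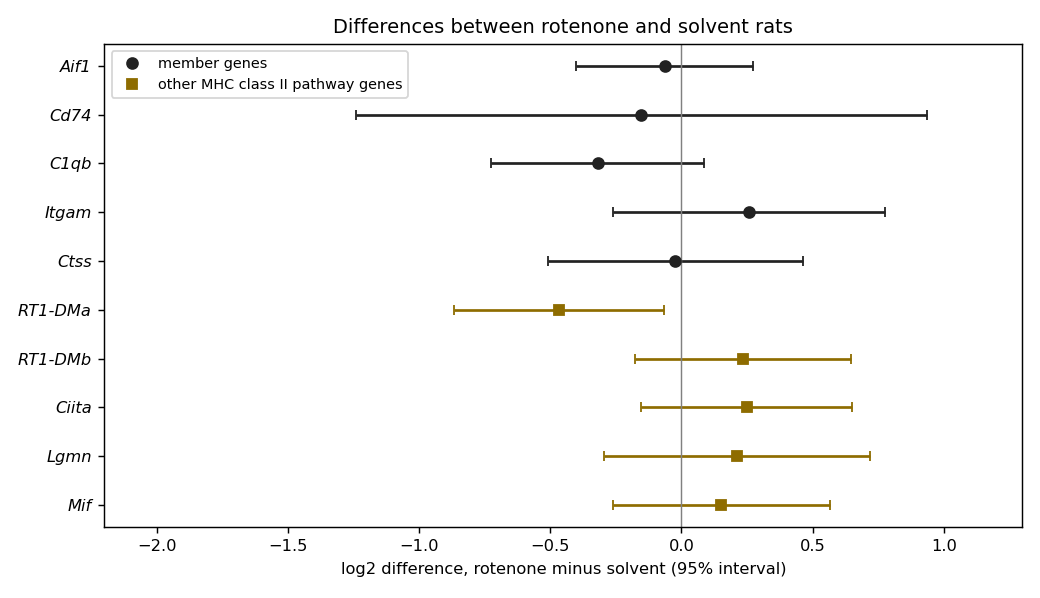
Log2 difference, rotenone minus solvent, with 95% confidence intervals from limma, for the 5 tested members (circles) and the 5 other measured genes of the MHC class II pathway (squares). The interval of every member includes 0, that of Cd74 is the widest, from -1.24 to 0.94, and the unadjusted interval of RT1-DMa, from -0.87 to -0.07, is the only one that leaves out 0.

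Around the members, lists of related genes were counted, with 66 genes measured over 8 lists. None of the 66 passed limma's adjusted threshold. Against 4.94% of all tested probes, 5 of the 66 had an unadjusted p below 0.05 in that test: Pdia3, RT1-DMa, Tpp1, Anxa1 and Icam1. Over all tested probes, the median difference was 0.01 and 51.7% were higher in rotenone rats. Of the 27 genes named from these lists, leaving out 1 rat turned the sign or moved the size of the difference by over 1.5 times in 21; Lyn, Psme2, RT1-DMa, Anxa1, Icam1 and Vcam1 were the others.

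Of 20 homeostatic microglia genes, 4 were on the array and 3 measured, 2 higher and 1 lower, with a median of 0.15 that turned to -0.086 without rotenone rat 16. P2ry12, the purinergic receptor that guides microglial processes, read 6.72, 6.35 and 6.51 in rotenone rats and 7.04, 6.55 and 6.63 in solvent rats, a difference of -0.21 (SE 0.19). Laptm5, a lysosomal membrane protein of leukocytes, differed by 0.23 and by -0.09 without rotenone rat 16, and the kinase Lyn by 0.15. Ptprc, the leukocyte antigen CD45, was above background only in solvent rat 1.

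Of 24 complement genes, 13 were on the array and 7 measured, 3 higher and 4 lower, with a median of -0.23. Clu, the chaperone clusterin, read 8.75, 9.11 and 7.76 in rotenone rats and 8.82, 9.41 and 9.17 in solvent rats. Its difference of -0.60 (SE 0.31) shrank to -0.205 without rotenone rat 16, the lowest rat. C4a, a component of the classical cascade, differed by -0.43, with -0.18 without rotenone rat 16 and -0.72 without rotenone rat 13.

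Of 27 MHC class I pathway genes, 12 were on the array and 9 measured, 3 higher and 6 lower, with a median of -0.02 that ran from -0.19 without solvent rat 11 to 0.19 without solvent rat 1. Pdia3, a disulfide isomerase of the peptide-loading complex, read 9.43, 8.89 and 8.30 in rotenone rats and 9.53, 9.69 and 9.32 in solvent rats. Only rotenone rat 9 lay among the solvent rats, and the difference was -0.64 (SE 0.26, limma adjusted p = 0.895), and -0.35 without rotenone rat 16. The proteasome activator subunits Psme1 and Psme2 differed by -0.17 and -0.34, and the peptide transporter genes Tap1 and Tap2 were near background on all arrays.

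Of 17 MHC class II pathway genes, 7 were on the array and 5 measured, 4 higher and 1 lower, with a median of 0.21. The listed genes of the class II chains themselves (RT1-Ba, RT1-Bb, RT1-Da and RT1-Db1) had no named probe. The median is therefore no reading of those chains. Beside RT1-DMa and RT1-DMb, described with Cd74, the measured genes were Ciita, the class II transactivator, at 0.25, the endosomal protease Lgmn at 0.21, and Mif, a cytokine that binds Cd74, at 0.15. Ciita was above background in 3 rotenone rats and 1 solvent rat. RT1-DOa was near background on all arrays.

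Of 25 lysosome and cathepsin genes, 18 were on the array and 16 measured, 9 higher and 7 lower, with a median of 0.03 that ran from -0.04 to 0.04 with each rat left out. Cathepsin B (Ctsb) differed by 0.16 and its inhibitor Cstb by 0.36. Of the 16, 3 had groups that did not overlap, the most of any list, against 9.97% of all tested probes. Cstb was higher in every rotenone rat than in any solvent rat, and Tpp1 and Ctse were lower. Ctse differed by only -0.13 and was above background in 0 rotenone rats and 3 solvent rats. Its other probes were near background on all arrays. Elsewhere among the 66 genes of the lists, groups did not overlap only for C3, RT1-DMa and Icam1. The tetraspanin Cd63 differed by -0.56, and by -0.11 without rotenone rat 16, and the peptidase Tpp1 by -0.43 (SE 0.19). Of 28 phagocyte and innate receptor genes, 15 were on the array and 10 measured, 7 higher and 3 lower, with a median of 0.09. Anxa1, a phospholipid-binding protein that dampens inflammation, read 9.15, 8.15 and 8.91 in rotenone rats and 8.06, 8.25 and 8.02 in solvent rats. Its difference was 0.63 (SE 0.24, limma adjusted p = 0.895). Mertk, which takes up dying cells, differed by 0.15 and the membrane protein Emp3 by 0.29.

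Of 19 genes of signals between neurons and microglia, 17 were on the array and 9 measured, 6 higher and 3 lower, with a median of 0.09. Beside Cx3cl1, Sirpa, the receptor for CD47, differed by 0.27 and the chemokine Cxcl12 by 0.41, or 0.098 without rotenone rat 13. Of 33 inflammatory cytokine and interferon target genes, 24 were on the array, 9 were near background on every array and 9 were measured, 6 higher and 3 lower, with a median of 0.19. Icam1, an adhesion molecule of vessels and glia, read 6.78, 6.75 and 6.68 in rotenone rats and 6.32, 6.23 and 6.06 in solvent rats. Every rotenone rat lay above every solvent rat, as in 5.08% of tested probes, and the difference of 0.53 (SE 0.16) had an unadjusted p of 0.00674 and a limma adjusted p of 0.895. This reading is from the brightest of 3 Icam1 probes, above background in 3 rotenone rats and 2 solvent rats. Another probe was near background on all 6 arrays, and the remaining one was above background in 1 solvent rat only. The groups overlapped for both, and probes this dim cannot test the reading of the brightest. The adhesion molecule Vcam1 differed by -0.27, the interferon gamma receptor Ifngr1 by -0.23 and the oxidase subunit Ncf1 by 0.25.

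**Figure D5:**
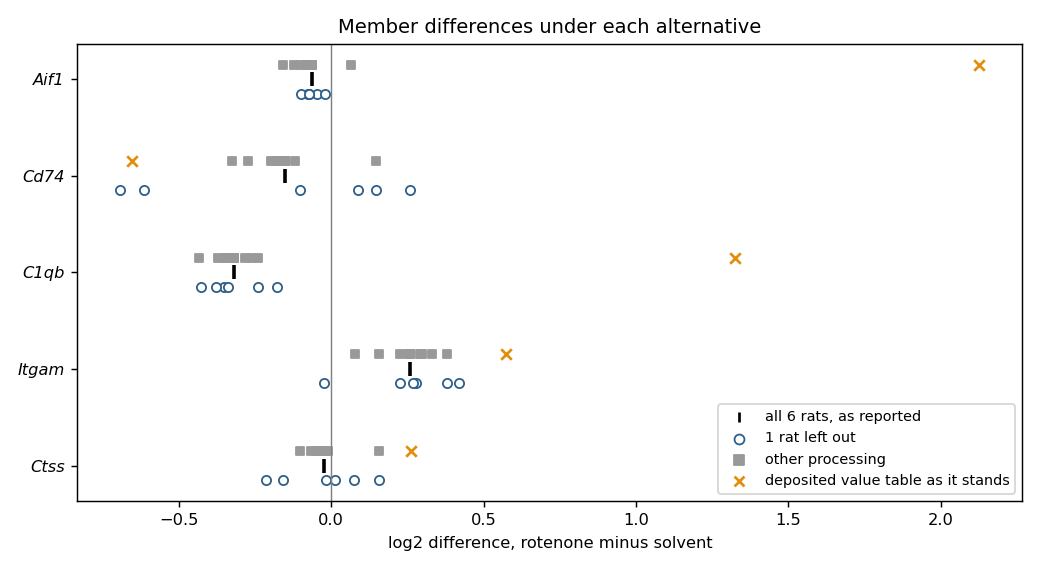
Log2 difference, rotenone minus solvent, for each tested member under each processing alternative that could test it and with each rat left out. Values of Cd74 run from -0.69 without solvent rat 11 to 0.26 without rotenone rat 9 among the fits that leave out a rat, those of Aif1 from -0.10 to -0.02, and the deposited value table as it stands gives 2.13 for Aif1.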

How the data were processed

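Expression was measured on 1 CodeLink array per rat, with 3 rats in each group. Per the file headers, the deposited scanner files give spot and background intensity for each probe with a quality flag. The authors' value table holds the same arrays' net intensity scaled to a median near 1; 5 of its columns matched 100% of probes in the scanner files, while that of solvent rat 7 matched 0.898% and is out of probe order. The sources used here do not name the scanner software.

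From the scanner files, spot means were corrected against background medians with limma 3.58.1 in R 4.3.3 (normexp, offset 50), control spots were dropped, and log2 values were quantile normalized. The offset draws dim probes together, so differences of dim genes are understated. Testing covered probes with 3 or more of 6 spots free of the near-background and masked flags, and used lmFit and eBayes over both groups, with Benjamini-Hochberg adjustment over all 16708. Genes with several probes take the brightest. Names came from RefSeq accessions matched to the GRCr8 gene table, which named 4675 of 33849 probes (4013 genes). Precision is limited by the 3 arrays in each group.

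The members and the gene lists were chosen with earlier results of these data known. Named genes were the members, every measured gene of lists with 5 or fewer measured, otherwise the 2 brightest and the 2 with the largest difference, and the 2 nearest in pattern to each varying member, with Th, Gfap, Mbp and Snap25 as checks of the tissue; 1 gene this rule names is not reported here. Others (Igf2, Ptgds, Mgp, Ttr, Alas2, Hba-a1, S100a9, Cd8a, Gzmb, Prf1, Col1a2, Folr1, Gjb6, Cdh1, Ptprc, Tap1, Tap2, RT1-DOa, Ctse, Ccl5) were named after their values were seen. So were Cd36, C3, Gap43, Stmn2, Nefl and Nefm. Alternatives covered background correction, offset, normalization, flags, the filter on dim probes, the value table, moderation, array weights, the header date and each rat left out. The fit was tested on simulated data.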

Additional observations from a re-analysis of the deposited data

How the results depend on the processing

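No paired analysis was possible because the rotenone and solvent rats share no replicate number. No member passed the adjusted threshold in any of the settings that could test it, and none of the list genes did in 19 settings; with contaminated, irregular and masked spots left out, no member could be tested. Over all probes the count called was 2 of 4283 with those spots left out, 1 with the spot median in place of the spot mean, an alternative chosen after seeing the data, and 0 to 3 with each rat left out, the 3 coming without solvent rat 1; it was 0 in the other alternatives. Cd74 changed sign to 0.15 with the header date as a block, which is the fit without solvent rat 7, to 0.26 without rotenone rat 9 and to 0.09 without solvent rat 1, and its values ran from -0.69 to 0.26 over the fits that leave out a rat. Ctss changed sign to 0.16 with that block, to 0.01 without rotenone rat 9 and to 0.07 without rotenone rat 16, within a range of -0.21 to 0.16 over the fits that leave out a rat. Over those fits Itgam ran from -0.024 to 0.42, Mertk from -0.028 to 0.28 and Laptm5 from -0.086 to 0.53, each lowest and below 0 only without rotenone rat 16. Emp3 ran from -0.012 to 0.46, below 0 only without rotenone rat 13. The deposited value table as it stands, in which the column of solvent rat 7 is out of order and the median difference over all probes is 0.48, gave 2.13 for Aif1, 1.32 for C1qb, 0.26 for Ctss, 2.21 for Psme1, 1.22 for Psme2, 1.25 for Pdia3, -0.11 for Ciita, 0.080 for Cd63 and 0.54 for Ifngr1, each a reversed sign; with the column put back in order only Aif1 stayed reversed, at 0.065. For the sign changes with a rat left out, the cause was not tested. The list medians of the homeostatic microglia, MHC class I and lysosome genes also changed sign when a rat was left out. Of 482 values of the 27 other named genes, 473 kept their direction and side of the threshold. As none of these genes passed in any setting, the side never changed. The filters on dim probes and the fit without moderation cannot alter a difference, and the header date fit repeats the fit without solvent rat 7. These values are therefore not 482 separate checks. Signal over background limited Cx3cr1, and the spread between rats limited Cd74.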

Other observations

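Probes for the same gene did not always give the same reading. Among the list genes, 28 had more than 1 named probe, and in 8 of them (Cd36, Ctsd, Flt1, Gja1, Mgp, Olig1, Slc6a3 and Vtn) 1 probe was above background on all 6 arrays and another on none. The bright Mgp probe read 8.83, 8.14 and 9.31 in rotenone rats and 8.00, 8.39 and 8.46 in solvent rats, while the other lay between 5.94 and 6.13 in all rats. Each of the 6 genes of the microglia and antigen presentation set that had a probe had only 1, so its reading had no second probe beside it.

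Ccl5, a chemokine of T cells and activated glia, was above background in 1 rat of each group. It read 6.10, 7.24 and 6.08 in rotenone rats and 6.69, 6.06 and 5.92 in solvent rats, highest in rotenone rat 13 and solvent rat 1, which were also among the 3 rats with the most Cd74. The other of those 3, solvent rat 7, had more Cd74 than solvent rat 1, but its Ccl5 of 6.06 lay among the rats with less Cd74.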
